A study of Mus musculus with 6 samples.

Results

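The TNF superfamily ligands and receptors were taken as the genes whose symbol starts with Tnfrsf or Tnfsf, or is Tnf, Lta or Ltb, and that are measured by a probe set with a single gene symbol. This gave 32 members, 12 ligands and 20 receptors, of 19937 genes measured. Each member was measured by 1 probe set. The probe set that carries both Tnfsf12 and Tnfsf13, with 3 symbols in all, was not assigned to a gene. Expression was measured in whole mouse kidney on 6 Affymetrix arrays, 1 per sample. The 3 NICD1 samples came from mice of the genotype Pax8rtTA TREICNotch1, in which the intracellular domain of Notch1, the active part of this receptor, can be switched on in tubule epithelial cells. The 3 control samples came from littermates labelled wild-type and of normal genotype. The transactivator is driven by the Pax8 promoter, which is active in tubule epithelium, whereas the RNA came from all cells of the kidney. Age, sex, the inducing agent and its duration are not given in the sources used here, nor is it said whether the samples of a group came from separate animals, so p-values measure the spread between these samples.

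Ligands of this superfamily are proteins of the cell surface, often released by cleavage, that act as trimers. Their receptors fall into broad classes. Death domain receptors bind adaptors such as Fadd and Tradd and can start cell death. Other receptors bind TRAF proteins and turn on NF-kB and MAP kinases. Decoy receptors bind a ligand without passing on a death signal. In the kidney, Tnf is made by macrophages and by tubule cells, and tubule injury is known to raise several of the receptors.

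Of the 32 members, 8 were higher in NICD1 than in control kidneys, 2 were lower and 22 did not pass the test at an adjusted p of 0.05. The higher ones were the ligands Tnf and Tnfsf18 and the receptors Tnfrsf1b, Tnfrsf12a, Tnfrsf1a, Tnfrsf23, Tnfrsf10b and Tnfrsf11b, and the lower ones were Tnfrsf21 and Tnfrsf26. In whole kidney, a change in the number of cells of a type and a change in RNA per cell cannot be told apart. The share of members that rose was 25.0%, beside 17.8% of all genes tested, and the share that fell was 6.2%, beside 14.9%. Counted in either direction, 31.2% of members passed, beside 32.7% of all genes, so the family as a whole passed about as often as genes in general. The median difference was 0.19 log2 over the members and 0.015 over all genes. Centring each array on its median moved these to 0.064 and -0.11 and left 6 members higher, without Tnfrsf11b and Tnfsf18, and 2 lower. The NICD1 values all lay above or all lay below the control values for 13 members, or 40.6%, beside 43.4% of all genes. Notch1 itself stood at 10.29, 10.30 and 9.99 log2 in NICD1 and at 6.65, 6.59 and 6.45 in control kidneys, from a probe set that may or may not read the transgene. Arrays correlated across genes at 0.985 to 0.990 within NICD1, 0.991 to 0.994 within control and 0.912 to 0.935 between the groups.

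**Figure D1:**
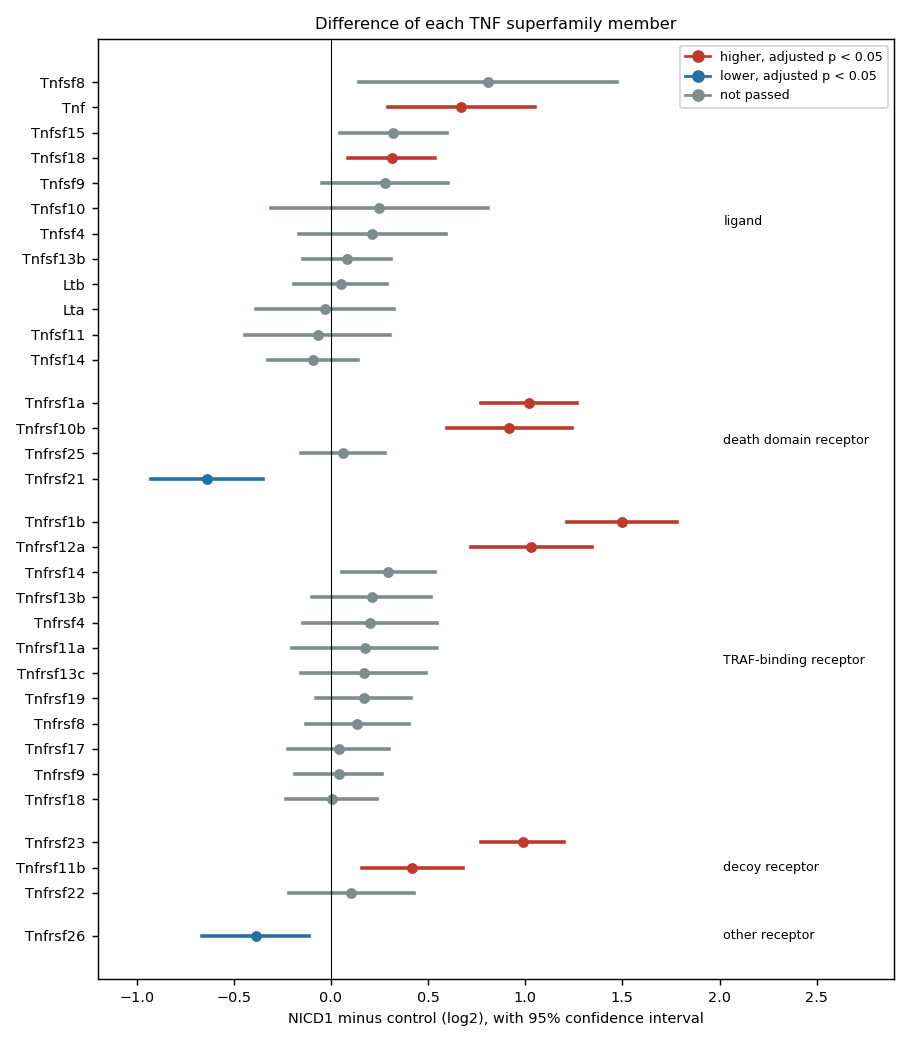
Difference of each of the 32 members, NICD1 minus control in log2 units on the horizontal axis, with the 95% confidence interval as a line, grouped by role. The 8 members that passed as higher are led by Tnfrsf1b at 1.50, and Tnfrsf21 at -0.64 lies farthest below 0.

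Sequence just upstream of the start site is shown for the 4 members with the largest rises, Tnfrsf1b, Tnfrsf12a, Tnfrsf1a and Tnfrsf23, because these are the genes on which the results turn. Each stretch is the 250 bases before the RefSeq start in assembly GRCm38.p6, on the gene's own strand. Capitals mark matches, on either strand, to the GC box GGGCGG, to the core of the Rbpj motif TGGGAA, or to the TATA box TATAAA. Rbpj is the protein through which active Notch binds DNA. The NF-kB motif, searched by its usual consensus, and the AP-1 motif TGANTCA were searched as well.
Tnfrsf1b, chr4:145246871-145247120, minus strand: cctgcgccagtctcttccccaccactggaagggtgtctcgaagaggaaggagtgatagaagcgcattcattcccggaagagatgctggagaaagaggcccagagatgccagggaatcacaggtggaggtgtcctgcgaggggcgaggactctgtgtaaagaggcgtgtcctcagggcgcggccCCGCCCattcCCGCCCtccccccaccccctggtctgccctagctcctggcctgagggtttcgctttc
Tnfrsf12a, chr17:23677450-23677699, minus strand: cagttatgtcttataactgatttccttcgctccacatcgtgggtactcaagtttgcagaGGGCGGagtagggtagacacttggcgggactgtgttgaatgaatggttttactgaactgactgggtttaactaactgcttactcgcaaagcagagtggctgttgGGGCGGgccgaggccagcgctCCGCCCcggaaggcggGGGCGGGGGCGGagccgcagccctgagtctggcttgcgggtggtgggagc
Tnfrsf1a, chr6:125349473-125349722, plus strand: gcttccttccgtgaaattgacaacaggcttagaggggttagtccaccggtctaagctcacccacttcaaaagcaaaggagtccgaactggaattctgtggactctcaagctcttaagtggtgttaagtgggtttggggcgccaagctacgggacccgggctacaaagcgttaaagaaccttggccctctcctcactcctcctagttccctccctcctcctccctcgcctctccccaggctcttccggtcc
Tnfrsf23, chr7:143685876-143686125, minus strand: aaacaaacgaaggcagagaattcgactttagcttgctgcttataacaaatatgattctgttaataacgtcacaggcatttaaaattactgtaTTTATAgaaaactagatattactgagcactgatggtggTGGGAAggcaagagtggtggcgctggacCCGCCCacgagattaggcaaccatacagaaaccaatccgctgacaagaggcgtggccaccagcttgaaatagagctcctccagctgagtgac

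These promoters differed in make-up. That of Tnfrsf12a held 5 GC boxes, that of Tnfrsf1b 2, and that of Tnfrsf1a none of the motifs searched. The promoter of Tnfrsf23 was the least rich in G and C of the 4, at 44.8% beside 55.6% for Tnfrsf1a, 58.8% for Tnfrsf12a and 62.8% for Tnfrsf1b. It held the Rbpj core at positions -120 to -115 from the start, a GC box and a TATA sequence. RefSeq promoters were matched for 26 members. Of the 6 matched members that rose, 1 held the Rbpj core, 0 the NF-kB motif, 0 the AP-1 motif, 4 a GC box and 3 a TATA sequence. Of the 19 matched members that did not pass, 4 held the Rbpj core, namely Lta, Tnfrsf14, Tnfrsf9 and Tnfsf15. In these 19 the NF-kB motif occurred in 4, the AP-1 motif in 4, a GC box in 6 and a TATA sequence in 3. Among all 32817 promoters of the same length, the Rbpj core occurred in 21.6%, the NF-kB motif in 7.2%, the AP-1 motif in 6.8%, the GC box in 32.7% and the TATA sequence in 12.4%. The NF-kB motif was found in 4 members, Ltb, Tnfrsf25, Tnfrsf8 and Tnfrsf9, none of which passed the test. In Tnfrsf9 it lay at -43 to -33 and overlapped an Rbpj core at -37 to -32. A match in this window is a description of its letters, and a missing one says nothing of sites elsewhere.

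Of 12 ligands 2 were higher in NICD1 kidneys, Tnf and Tnfsf18, and 0 were lower, beside 17.8% of all genes higher. Tnf, the founding cytokine of the family, stood at 4.83, 4.78 and 4.97 log2 on the NICD1 arrays, against 4.52, 4.23 and 3.82 on the control arrays. All 3 NICD1 values lay above all control values, and the spread was wider among the controls. The means were 4.86 ± 0.10 in NICD1 and 4.19 ± 0.36 in control kidneys (SD, n = 3 each), a difference of 0.67 log2, or 1.59-fold (SE 0.17, adjusted p = 0.0125). Its neighbours in the gene cluster on chromosome 17 showed no such separation. Lta, the soluble lymphotoxin, stood at 3.65, 3.95 and 4.15 log2 in NICD1 and at 4.09, 4.08 and 3.68 in control kidneys. Ltb, which anchors lymphotoxin to the cell surface, stood at 4.32, 4.13 and 4.40 in NICD1 and at 4.21, 4.30 and 4.19 in control kidneys. For both the groups overlapped, with differences of -0.03 (95% confidence interval -0.39 to 0.33) and 0.05 log2 (-0.19 to 0.29) at adjusted p-values of 0.921 and 0.792.

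Tnfsf18, the ligand of GITR on T cells, passed as higher by a small amount. Its values were 3.19, 3.16 and 3.27 log2 in NICD1, against 2.97, 2.92 and 2.80 in control kidneys, a difference of 0.31 (SE 0.10, adjusted p = 0.0367). On all 6 arrays these values lay under the lower quartile of all genes, and no detection calls were given. The call was lost without any of 5 of the 6 arrays in turn (adjusted p 0.0644 to 0.138; it was kept without control replicate 1) and after each array was centred on its median (0.19, adjusted p = 0.169).

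The other 10 ligands did not pass, and in 2 of them a single array stood high. Tnfsf8, the ligand of CD30, had 4.96, 3.99 and 3.53 log2 in NICD1, against 3.40, 3.36 and 3.28 in control kidneys. The groups did not overlap, but NICD1 replicate 1 lay far above the other NICD1 arrays, and the difference of 0.81 had an adjusted p of 0.0638 (SE 0.29). Without NICD1 replicate 3 it was 1.12 with an adjusted p of 0.00844. Tnfsf10, known as TRAIL, an inducer of cell death, had 7.86, 6.93 and 6.77 log2 in NICD1 and 6.92, 7.07 and 6.82 in control kidneys. Here the groups overlapped, with NICD1 replicate 1 alone above the control range (difference 0.25, adjusted p = 0.532). The interferon-induced genes Irf7, Rtp4 and Oasl2 also had their highest values on that array. So did each of the 13 macrophage markers counted below, such as Lyz2 at 9.90, 8.82 and 8.88 log2 in NICD1. Irf7 stood at 8.43, 6.92 and 7.03 log2 in NICD1 and at 5.24, 5.34 and 5.19 in control kidneys. Without that array Tnfsf8 differed by 0.41 (adjusted p = 0.0669) and Tnfsf10 by -0.09 (adjusted p = 0.671). Tnfsf8, Tnfsf10 and these interferon-induced genes were singled out after their values were seen.

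For Tnfsf15, which acts on T cells through Tnfrsf25, all NICD1 values lay above the control values, at 5.31 to 5.72 log2 in NICD1 and 5.12 to 5.26 in control kidneys, with a difference of 0.32 (adjusted p = 0.0754). Tnfsf9, the ligand of 4-1BB, differed by 0.28 (adjusted p = 0.188) and Tnfsf4, the ligand of OX40, by 0.21 (adjusted p = 0.412). Tnfsf13b, a B cell survival factor, differed by 0.08, Tnfsf11, known as RANKL and needed for bone resorption, by -0.07, and Tnfsf14 by -0.09. For these 5 ligands the values of the groups overlapped.

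**Figure D2:**
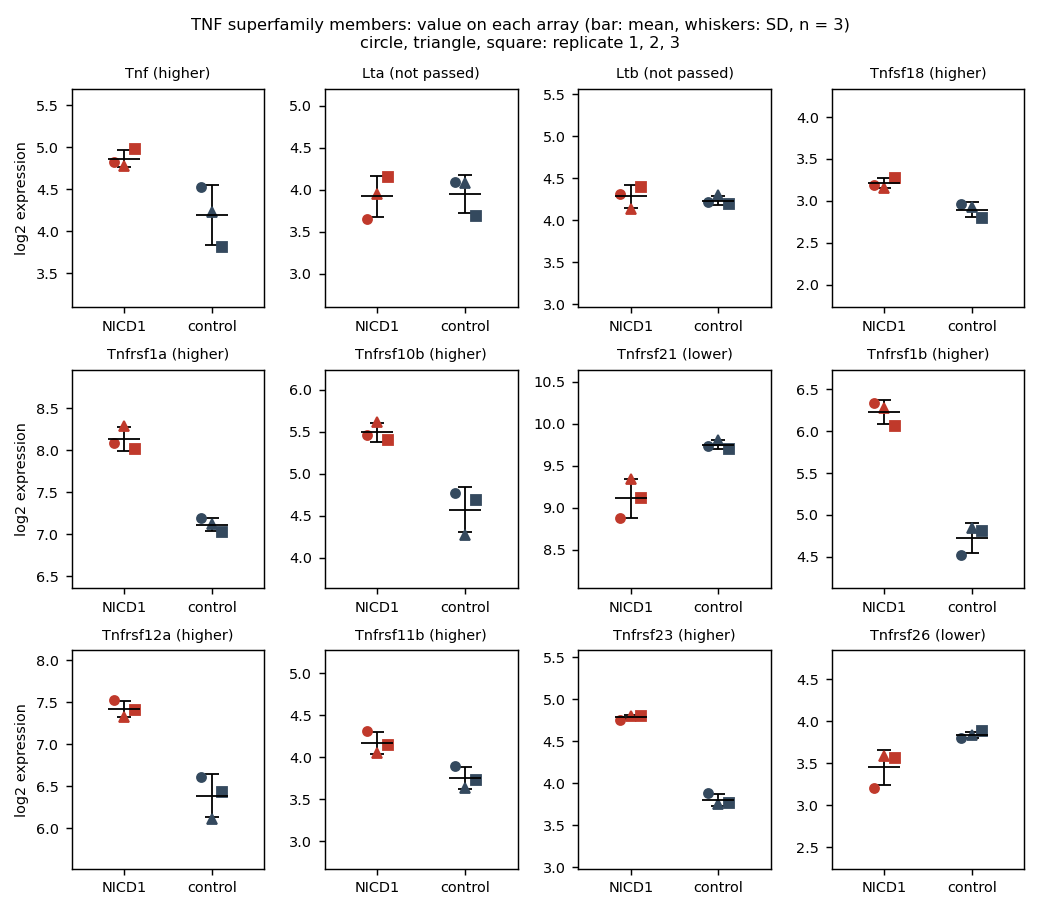
Log2 expression of the 10 changed members and of Lta and Ltb on each array, NICD1 left and control right in each panel, with mean and SD (n = 3) and a vertical span that is equal in all panels. The groups are apart for all members marked higher or lower, and overlap for Lta and Ltb.

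Both receptors of Tnf rose. Tnfrsf1a, the death domain receptor through which Tnf drives inflammation and cell death, stood at 8.09, 8.29 and 8.01 log2 in NICD1, against 7.19, 7.12 and 7.03 in control kidneys. Each group was tight and the gap between them wide. Means were 8.13 ± 0.14 in NICD1 and 7.11 ± 0.08 in control kidneys, a difference of 2.03-fold (1.02 log2 with an SE of 0.11, adjusted p = 9.62e-05). Tnfrsf1b, the second Tnf receptor, which binds TRAF proteins and has no death domain, showed the largest rise of the family. Its values were 6.34, 6.27 and 6.06 log2 in NICD1, against 4.53, 4.84 and 4.81 in control kidneys. The means were 6.22 ± 0.14 in NICD1 and 4.73 ± 0.17 in control kidneys. The difference was 2.82-fold (1.50 log2 with an SE of 0.13, adjusted p = 2.01e-05). Within each array the value of Tnfrsf1b minus that of Tnfrsf1a was -1.91 ± 0.14 in NICD1 and -2.39 ± 0.24 in control kidneys. This difference of 0.48 log2 separated the groups on all arrays, at an exact two-sided permutation p of 0.1, the smallest that 3 against 3 arrays allow. The p stays at 0.1 when adjusted over the 2 pairs of receptors compared in this way.

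The other death domain receptors moved apart. Tnfrsf10b, the mouse receptor that passes on the death signal of Tnfsf10, stood at 5.46, 5.61 and 5.40 log2 in NICD1, against 4.77, 4.27 and 4.69 in control kidneys. The groups did not overlap, and the difference was 1.89-fold (0.92 log2, SE 0.14, adjusted p = 0.000898). Tnfrsf21, known as DR6, fell to 8.88, 9.34 and 9.12 log2 in NICD1 kidneys, against 9.74, 9.81 and 9.71 in control kidneys. Its NICD1 values were spread more widely than its control values and all lay below them, with a difference of -0.64 log2 (SE 0.13, adjusted p = 0.00382). After quantile normalization of the arrays the difference shrank to -0.23 and no longer passed (adjusted p = 0.278). Tnfrsf25, the receptor of Tnfsf15, stood at 4.97 ± 0.08 in NICD1 and 4.90 ± 0.0026 in control kidneys and did not pass (0.06, 95% confidence interval -0.15 to 0.28).

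Of 12 receptors that bind TRAF proteins, Tnfrsf1b and Tnfrsf12a rose, none fell and 10 did not pass. Of all genes, 17.8% were higher and 14.9% lower, and nothing is read from the count. Tnfrsf12a, known as Fn14, is the receptor of the cytokine TWEAK and is induced in injured epithelium. It stood at 7.52, 7.33 and 7.40 log2 in NICD1, against 6.62, 6.11 and 6.44 in control kidneys. The groups were well apart, with means of 7.42 ± 0.10 in NICD1 and 6.39 ± 0.26 in control kidneys, a difference of 2.04-fold (1.03 log2 with an SE of 0.14, adjusted p = 0.000374). The gene of its ligand, Tnfsf12, is on the probe set with several symbols, whose values overlapped between the groups, at 5.40 to 5.58 log2 in NICD1 and 5.26 to 5.48 in control kidneys. Tnfrsf14, the receptor of Tnfsf14, came closest of those that did not pass. Its values were 5.80, 5.63 and 5.73 log2 in NICD1, against 5.36, 5.35 and 5.55 in control kidneys, with a difference of 0.30 (adjusted p = 0.0599). It passed with the dimmest 40% of genes left out of the fit (adjusted p = 0.0422).

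The remaining 9 are receptors best known from lymphocytes and bone, apart from Tnfrsf19, known as TROY. They are Tnfrsf4 (OX40), Tnfrsf8 (CD30), Tnfrsf9 (4-1BB) and Tnfrsf18 (GITR) of T cells, Tnfrsf13b, Tnfrsf13c and Tnfrsf17 of the B lineage, and Tnfrsf11a (RANK) of the osteoclast lineage. Their differences ran from 0.00 for Tnfrsf18 to 0.21 for Tnfrsf13b, all with overlapping groups. The 95% intervals were -0.23 to 0.24 for Tnfrsf18, -0.10 to 0.52 for Tnfrsf13b and -0.14 to 0.54 for Tnfrsf4.

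Of 3 decoy receptors 2 rose, too few to set beside the 17.8% of all genes that were higher. Tnfrsf23, a mouse decoy for Tnfsf10, stood at 4.75, 4.80 and 4.80 log2 in NICD1, against 3.88, 3.76 and 3.76 in control kidneys. The replicates lay close together in both groups, and the difference was 1.98-fold (0.99 log2, SE 0.09, adjusted p = 4.65e-05). Tnfrsf22, the other mouse decoy for Tnfsf10, had 4.82, 4.66 and 4.36 log2 in NICD1 and 4.66, 4.33 and 4.54 in control kidneys, which overlapped (0.11, adjusted p = 0.661). Tnfrsf26, another receptor gene on chromosome 7, fell to 3.21, 3.58 and 3.57 log2 in NICD1 kidneys, against 3.80, 3.83 and 3.88 in control kidneys (-0.39, SE 0.12, adjusted p = 0.0368). These genes are alike in sequence and can share probe sequence, which leaves the value of each uncertain. Within each array, Tnfrsf23 minus Tnfrsf22 was 0.17 ± 0.26 in NICD1 and -0.71 ± 0.12 in control kidneys, a difference of 0.88 log2 with no overlap (exact two-sided permutation p = 0.1, again the smallest possible). Tnfrsf11b, known as osteoprotegerin, a soluble decoy of Tnfsf11, stood at 4.31, 4.04 and 4.15 log2 in NICD1, against 3.89, 3.63 and 3.73 in control kidneys (0.42, SE 0.12, adjusted p = 0.0201). Tnfrsf26 lay under the lower quartile of all genes on 4 of the 6 arrays, all 3 NICD1 arrays among them. Tnfrsf23 and Tnfrsf11b did so on 2 arrays each, control replicates 2 and 3. With no detection calls, the size of these 3 differences is uncertain. The calls of Tnfrsf26 and Tnfrsf11b did not hold when single arrays were left out. That of Tnfrsf26 was lost without NICD1 replicate 1 (-0.26, adjusted p = 0.0968) or any 1 control array (-0.37 to -0.41, adjusted p 0.071 to 0.111). That of Tnfrsf11b was lost without NICD1 replicate 1 (0.35, adjusted p = 0.0614), control replicate 2 (0.36, adjusted p = 0.0879) or control replicate 3 (0.41, adjusted p = 0.0658), and after centring (0.29, adjusted p = 0.0773).

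Many members were dim on these arrays. Of the 32, 22 lay under the median of all genes on all 6 arrays, or 68.8%, beside 43.9% of all genes. Of these 22, 5 passed the test, beside 8.05% of the 8747 genes that were as dim, and of the other 10 members 5 passed. Genes picked for low values in both groups have little room to differ, and nothing is read from these shares. This kind of normalization can compress differences of dim genes, which was not measured here.

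**Figure D3:**
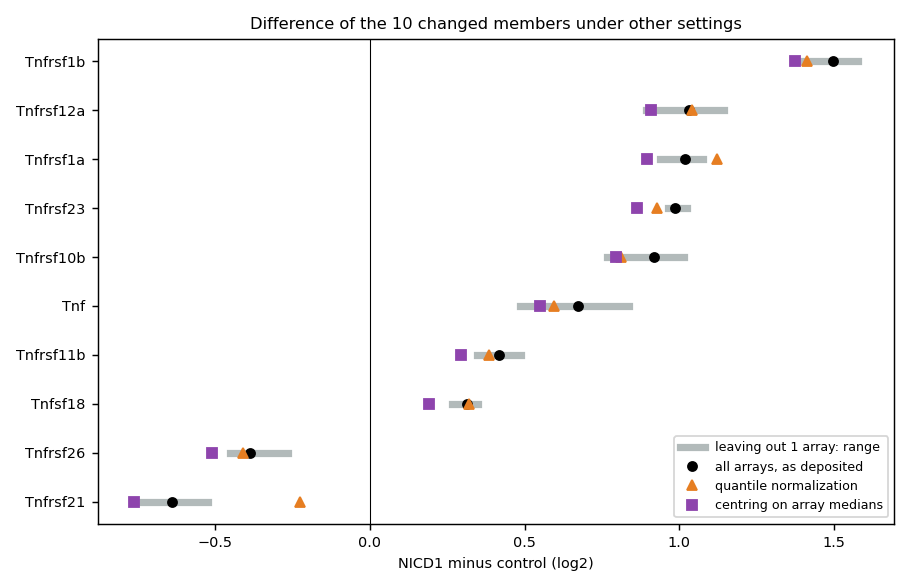
Difference of the 10 changed members, NICD1 minus control in log2 units, with all arrays as deposited (circles), after quantile normalization (triangles), after centring (squares) and as the range when 1 array is left out (bars). Tnfrsf1b stays between 1.37 and 1.58 over these settings, whereas Tnfrsf21 ranges from -0.76 to -0.23.

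Family genes with other symbols were counted apart. Of 8 such receptors, 3 rose, 0 fell and 5 did not pass, with a median of 0.17 log2. Eda2r, a receptor of ectodysplasin, rose to 4.86 ± 0.47 log2 in NICD1, against 3.03 ± 0.16 in control kidneys (1.83, SE 0.21, adjusted p = 0.000137), where all 3 values lay under the lower quartile of their arrays. Cd40, which activates antigen-presenting cells, rose by 0.76 (adjusted p = 0.000482) and the lymphotoxin receptor Ltbr by 0.35 (adjusted p = 0.018). The death receptor Fas differed by 0.23 (adjusted p = 0.147). Of 4 ligands, only Cd70 passed, as lower (-0.34, adjusted p = 0.0428). Fasl, Cd40lg and Eda differed by -0.04, 0.11 and 0.15 (adjusted p 0.871, 0.658 and 0.504). The call of Cd70 was kept without NICD1 replicate 2 and lost without any other single array (adjusted p 0.0648 to 0.123).

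Other TNF pathway genes were counted over 8 lists, these 12 genes included. Of 76 genes measured, 40 rose, 6 fell and 30 did not pass (median difference 0.37 log2). Of all genes, 17.8% were higher and 14.9% lower. The lists were chosen with earlier results of these data known. They also hold mostly brighter genes, as 59 of the 76 remained with the dimmest 40% of genes left out. Nothing is therefore read from the comparison with all genes. Of 10 genes listed with the adaptors 5 rose, 0 fell and 5 did not pass. Traf2, which ties the Tnf receptors to ubiquitin ligases, stood at 7.74 ± 0.04 in NICD1 and 6.74 ± 0.02 in control kidneys (0.997 log2, adjusted p = 3.61e-05), and Traf5 rose by 1.005 log2 (adjusted p = 7.5e-05). Traip and Tank, whose part in this relay was not tested, rose by 0.43 and 0.47 (adjusted p = 0.0182 and 0.0268). The death domain adaptors Tradd and Fadd differed by -0.01 and -0.08 (adjusted p 0.975 and 0.742).

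Of 12 survival and ubiquitin regulators, 7 rose, 2 fell and 3 did not pass (median 0.58 log2). Birc3, a ubiquitin ligase that restrains cell death, rose by 1.42 log2 (adjusted p = 7.77e-05), its relative Birc2 by 0.88 (adjusted p = 0.000159), and Tnfaip3, the feedback inhibitor A20, by 1.30 (adjusted p = 0.00121). The A20 partner Tnip1 rose by 0.68 (adjusted p = 0.00137). The 2 that fell were Cflar, the inhibitor of Casp8 known as c-FLIP, at -0.68 (adjusted p = 0.00152), and the deubiquitinase Cyld at -0.43 (adjusted p = 0.025). Of 6 cell death effectors, 4 rose, 1 fell and 1 did not pass (median 0.71). Mlkl, the effector of necroptosis, stood at 5.80, 5.27 and 5.51 log2 in NICD1, against 3.43, 3.40 and 3.43 in control kidneys, a difference of 4.31-fold (2.11 log2 with an SE of 0.14, adjusted p = 4.84e-06). The 3 control values lay under the lower quartile of their arrays, and with no detection calls it is not known whether Mlkl was above background there, so the size of the fold is uncertain. Its activating kinase Ripk3 rose by 0.81 (adjusted p = 0.00291), Casp8 by 0.80 (adjusted p = 0.000232) and Dab2ip, which binds Tnf receptor complexes, by 0.62 (adjusted p = 0.00224). Bid, which links Casp8 to mitochondria, fell by 0.92 (adjusted p = 0.000369).

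Of 15 genes of the NF-kB and MAP kinase relay, 9 rose, 0 fell and 6 did not pass (median 0.61 log2). Nfkb2 rose by 1.38 (adjusted p = 2.29e-05), the inhibitor Nfkbia by 1.32 (adjusted p = 0.000215) and Rela by 1.19 (adjusted p = 0.000129). Map3k14, the kinase that starts the noncanonical arm, rose by 1.10 (adjusted p = 0.000293). Of 7 genes that process the ligands, 4 rose, 0 fell and 3 did not pass (median 0.40). Rhbdf2, which brings the Tnf-cleaving protease Adam17 to the cell surface, stood at 6.85 ± 0.02 in NICD1 and 5.76 ± 0.08 in control kidneys (1.09, adjusted p = 2.71e-05). Rhbdf1, Adam10 and Adam17 rose by 0.67, 0.51 and 0.40 (adjusted p = 0.000673, 0.0105 and 0.023). The call of Adam17 was lost without any 1 of 4 arrays, NICD1 replicates 1 and 2 and control replicates 1 and 2 (adjusted p 0.0546 to 0.0729). Those of Ltbr, Traip and Tank were also lost in 3, 2 and 5 of the 6 such fits (Tank kept its call without NICD1 replicate 3). Centring ended the calls of Ltbr (0.23, adjusted p = 0.0983), Traip (0.30, adjusted p = 0.0659), Tank (0.34, adjusted p = 0.0985) and Adam17 (0.28, adjusted p = 0.104), and quantile normalization that of Tank (0.35, adjusted p = 0.0793).

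Genes known to be induced by Tnf moved both ways. Of 14, 8 rose, 2 fell and 4 did not pass (median 0.65 log2). The adhesion molecules Vcam1 and Icam1 rose by 3.22 and 1.72 log2 (adjusted p = 7.71e-06 and 4.14e-05) and Tnfaip2 by 2.20 (adjusted p = 5.84e-06). The mitochondrial superoxide dismutase Sod2 fell to 8.73 ± 0.06 in NICD1, against 10.34 ± 0.03 in control kidneys (-1.61, adjusted p = 3.13e-06), and Tnfaip8 fell by 2.15 (adjusted p = 0.000131).

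**Figure D4:**
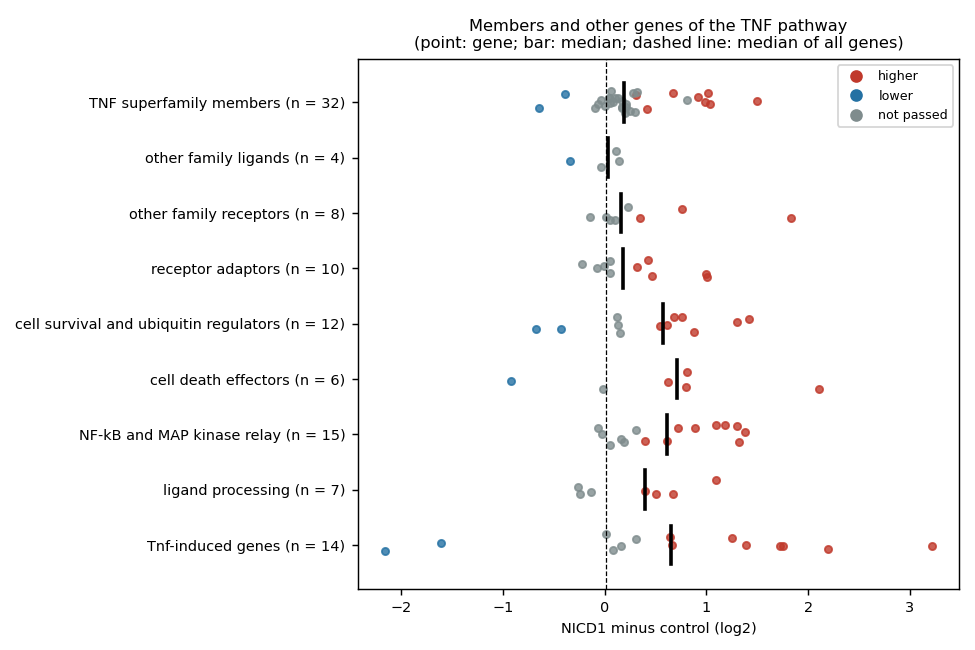
Difference of each gene, NICD1 minus control in log2 units, for the 32 members and the 8 lists of other TNF pathway genes, with a bar at each median and a dashed line at the median of all genes (0.015). Medians of the cell death, relay and Tnf-induced lists lie between 0.61 and 0.71, and the members' median is 0.19.

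Cell type markers differed between the groups as well. Levels below are sums over a list after removal of the log. Of 13 macrophage markers 12 rose, all but Csf1r, and their sum was 1982 to 3884 in NICD1 and 482 to 531 in control kidneys. Of 11 T and NK cell markers 2 rose and 9 did not pass (median 0.05 log2), with sums of 178 to 218 in NICD1 and 147 to 153 in control kidneys. The 2 were Cd8a, by 1.38 log2, and Cd3e, by 0.30. Cd8a, the brightest of this list in NICD1, stood at 6.37, 5.69 and 5.43 there and at 4.59, 4.73 and 4.04 in control kidneys. The sums therefore lean on this 1 gene, and Cd8b1 differed by -0.05. Of 7 neutrophil markers 1 rose, with sums of 94.2 to 100.9 in NICD1 and 90.7 to 91.6 in control kidneys. Of 6 B and plasma cell markers 1 fell, with sums of 73.4 to 87.4 in NICD1 and 84.9 to 96.8 in control kidneys. Among stromal lists, 4 of 7 fibroblast and pericyte markers rose (1752 to 2805 in NICD1, 764 to 941 in control kidneys), and 4 of 7 endothelial markers fell (303 to 559 in NICD1, 855 to 890.0 in control kidneys). Of 4 podocyte markers 1 rose and 2 fell (168 to 213 in NICD1, 319 to 362 in control kidneys). All 9 proximal tubule markers fell (1182 to 2467 in NICD1, 19932 to 20837 in control kidneys). Of 11 distal nephron and collecting duct markers 1 rose and 9 fell (6361 to 6762 in NICD1, 9545 to 10289 in control kidneys), with a median difference of -2.38 log2. Umod, the 1 that rose, made up 80.2 to 86.3% of that sum in NICD1 and 41.0 to 48.1% in control kidneys, and without it the sum was 878 to 1258 in NICD1 and 5094 to 6070 in control kidneys. No marker is at 0, since values of this kind have no 0. The part of these markers in the members' differences was not tested.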

How the data were processed

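Whole-kidney RNA of 3 NICD1 and 3 control samples was hybridised to 1 array each. The deposited values are log2 expression per probe set, from 1.40 to 13.67, which the authors normalized with RMA16 in GeneSpring, per the labels' protocols. No genome build or detection call is given in the sources used here. Of 34760 probe sets, 6573 in the control range were left out. Genes were named by the platform annotation, and each gene was represented by whichever of its single-symbol probe sets was brightest on average (19937 genes). All 32 members kept their symbol in the RefSeq table of GRCm38.p6, and promoter sequences come from RefSeq in that assembly.

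The groups were compared by limma (version 3.58.1, R 4.3.3, lmFit and eBayes, two-sided). P-values were adjusted by Benjamini-Hochberg over the 19937 genes, and 0.05 was the threshold. Differences are NICD1 minus control. With 3 arrays per group, precision is limited by their number. On simulated arrays of 19937 genes for NICD1 against control, genes with known changes were called at these rates: 25.4% of 67 with a change of 0.5 log2, 77.6% of 67 with a change of 1, and 97.0% of 66 with a change of 2. Only these genes were changed there, far fewer than the 6529 that passed in the data. The adjustment is stricter when few genes differ, so these rates do not measure the chance of a call here.

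The members and the gene lists were chosen with earlier results of these data known. Full values are given for members that passed with a difference of at least 0.5 log2 and for Tnf, Lta, Ltb and both Tnf receptors. Of each other list, up to 4 genes with the lowest p are named with their difference and adjusted p. Other list genes were named after their values were seen. Of 83 pathway genes, 7 were not analysed here. Alternatives were another summary of probe sets, quantile normalization, median centring, a filter on the dimmest 40%, a trended robust variance, array weights, a replicate block, a threshold of 0.01, and leaving out each array in turn.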

Additional observations from a re-analysis of the deposited data

How the results depend on the processing

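The count of members that rose was 8. It was 5 with the dimmest 40% of genes left out, where 13 members remained in the fit and Tnfrsf14 gained a call, and 5 at an adjusted p of 0.01. It was 9 with array weights, where Tnfsf8 gained a call (0.75 log2, adjusted p = 0.0263). It lay between 6 and 9 when 1 array was left out. The count that fell was 2. It was 1 after quantile normalization, with the dimmest 40% left out and at an adjusted p of 0.01, and lay between 1 and 2 when 1 array was left out. The members' median difference of 0.19 log2 was 0.10 after quantile normalization and 0.064 after centring, both shifts larger than the SD of 0.063 between replicate arrays in the members' median, and 0.14 to 0.25 when 1 array was left out. Centring moved the median of all genes from 0.015 to -0.11 and the share of higher calls from 54.4% to 39.4%, and left 6 members higher and 2 lower. The cause of these shifts was not tested. The other pathway genes gave 35 to 38 higher and 4 to 6 lower when 1 array was left out. Of the 10 changed members, Tnfrsf1b, Tnfrsf12a, Tnfrsf1a and Tnfrsf10b kept their call under all alternatives run. The other summary of probe sets is no check here, as each member has 1 probe set and kept the same values. Tnfrsf23 and Tnf were left out with the dimmest 40%. Over the other alternatives Tnfrsf23 kept its call, and Tnf lost it at the threshold of 0.01 alone. Over the 64 genes followed through the alternatives, 811 of 870 values kept their side of the threshold. Another 53 lost their call, 6 gained one and 0 changed sign while called. Part of this agreement was fixed, as a gene that did not pass at 0.05 cannot pass at 0.01. The 64 are the 32 members and the genes of lowest p in each pathway list. Other genes named above, such as Cflar, Cyld, Ripk3 and Tnfaip8, were not followed in this way. Whether replicate numbers pair the arrays is not stated in the sources used here. Same-numbered deviations from the group means correlated across genes at -0.069, -0.012 and -0.070. The deviations of a gene cancel within each group of 3, so these values cannot decide whether arrays were paired. With the replicate block 8 members were higher and 2 lower, Tnfsf18 not among those that passed (adjusted p = 0.0874) and Tnfsf8 among them (0.0292). It also ended the calls of Cd70 (0.0913) and Adam17 (0.0502) among the pathway genes followed, and array weights that of Cd70 (0.0927). In all, 5981 genes passed with the block, beside 6529 without it. No depth or detection call is available to set a limit on dim members.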
